A study of Mus musculus with 18 samples.

Results

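B cells that carried a TLR9 with the signaling domain of TLR7 (Tlr997) were compared with B cells that carried 1 normal copy of Tlr9 (Tlr9het), both after 4 h with the TLR9 agonist CpG. The comparison rested on the 6 libraries whose titles name these states, 3 per genotype, of 18 libraries in the series. All mice were female MRL/lpr, a lupus-prone strain that lacks functional Fas, were 5 to 7 weeks old and were Tlr7-/- by their titles. Tlr997 mice were homozygous for a chimeric allele at the Tlr9 locus, in which the coding sequence of the TLR7 TIR domain and a stop codon stood before the sequence of the TLR9 TIR domain. Tlr9het mice were Tlr9+/-, as the sample titles and descriptions give it, whereas the treatment text writes Tlr9-/- for the same arm, and the titles were followed. Bead-purified splenic B cells of 3 mice per genotype received CpG ODN 1826 at 10 µg/ml or were left unstimulated, and the 6 unstimulated libraries gave the level of each gene before CpG. The agonist, its dose and the time were the same for both genotypes. The number of Tlr9 copies encoding the receptor differed along with the signaling domain. The paper reports that Tlr997 and Tlr9+/- B cells held equal amounts of TLR9 protein, and chose the control to match them. That staining was done on B cells of male mice. The libraries hold no protein values, and the effects of copy number and signaling domain cannot be told apart in them.

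TLR9 and TLR7 sit in endosomes of B cells, where TLR9 binds DNA rich in CpG motifs and TLR7 binds RNA. Both recruit MyD88 through their TIR domains and activate NF-κB, MAP kinases and interferon regulatory factors. In B cells, CpG drives growth, cytokine secretion, surface activation markers and entry into the plasmablast program, and MyD88 signals in other cell types also induce type I interferon, whose receptor acts through STAT proteins on genes with an interferon-stimulated response element (ISRE).

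Values are the deposited log2 CPM, which are read counts scaled to library size and, per the methods, quantile normalized. They also carry the trace of an adjustment by replicate number, described below. After these steps, replicates of the 6 CpG libraries correlated at r = 0.979 to 0.988 across genes, and no 2 files were identical. The values summed to 992500 to 1004412 CPM per library, and quantile normalization brings such sums close together. The number of reads behind each value is unknown. Of 23420 genes listed, 11494 exceeded 0 log2 CPM in at least 3 of the 12 Tlr7-/- libraries and were tested with limma. Calls required a p below 0.05 after Benjamini-Hochberg adjustment and a fold change beyond 0.5 on the log2 scale in either direction. All fold changes are Tlr997 minus Tlr9het on the log2 CPM scale, with the standard error (SE) of the fit, and each adjusted p is from limma.

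With CpG, 313 genes differed between the genotypes, 2.72% of those tested, of which 144 were higher (1.25%) and 169 lower (1.47%) in Tlr997. The counts in gene lists and families below are to be read against these shares. The lists were chosen with earlier results of these data known. Some members (Pdlim1, Ptpn1, Bcl6, Socs1 and Socs3) are genes that the paper names as differing in this contrast. Families of genes with shared symbol letters were kept only with 3 or more calls. Shares above those of all genes were thus partly fixed by the choice and are no separate evidence. Without the fold threshold 680 genes passed (5.92%). The libraries of the 2 genotypes did not overlap for 143 of the higher and all 169 of the lower genes, and for 30.0% of all genes tested. Most differences were of moderate size, and 31 higher and 43 lower genes passed 2-fold (1 on the log2 scale). The median log2 fold change over all genes tested was 0.00, a value that quantile normalization draws toward 0. The higher genes included interferon-inducible genes and B cell surface genes, and the lower genes included suppressors of cytokine signaling, cytokines and receptors. Leaving out Tlr9het CpG library 1 left 186 calls in all (83 higher and 103 lower), and leaving out Tlr9het CpG library 3 left 102 lower calls.

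**Figure D1:**
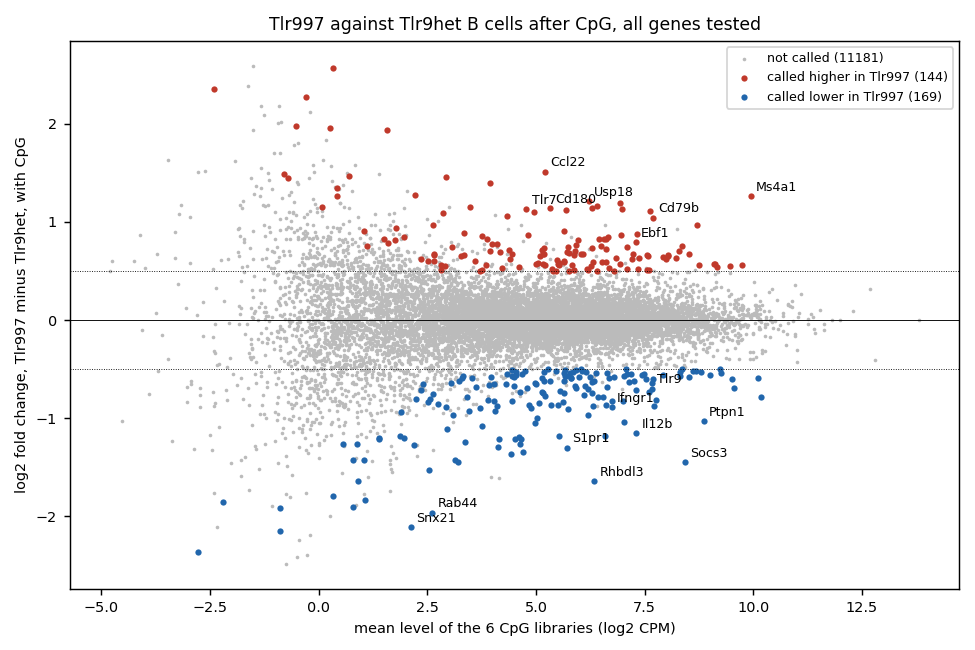
Log2 fold change (Tlr997 minus Tlr9het, with CpG) against the mean level of the 6 CpG libraries (log2 CPM) for the 11494 genes tested, with 144 genes called higher in red and 169 called lower in blue. Called genes spread over the whole range of levels, with Ms4a1 near the top of it, and the dotted lines mark the fold threshold of 0.5.

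Before CpG, the called genes lay on either side of 0. The unstimulated libraries, which share no sample with the CpG comparison, gave 2 calls (0.0174% of 11494 genes), Tlr7 among them, and 1237 genes at an unadjusted p under 0.05. The median unstimulated difference was -0.00 for the 144 higher genes, of which 69 were above 0, and 0.02 for the 169 lower genes, of which 77 were below 0. Absolute differences of these genes had medians of 0.10 and 0.13 without CpG, close to the 0.11 of all genes, against 0.68 and 0.73 with CpG. A call required a difference beyond 0.5 with CpG, so the values with CpG were partly fixed by the choice of genes. The difference of the genotype differences was itself called for 56 of the higher and 73 of the lower genes, and for 1.54% of all genes (177). The CpG difference is 1 term of it, so the same choice raised the counts of 56 and 73. With a block for each genotype and replicate number, which compares the unstimulated and CpG libraries of a number with each other, 329 genes were called, among them 87 of the higher and 106 of the lower genes.

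**Figure D2:**
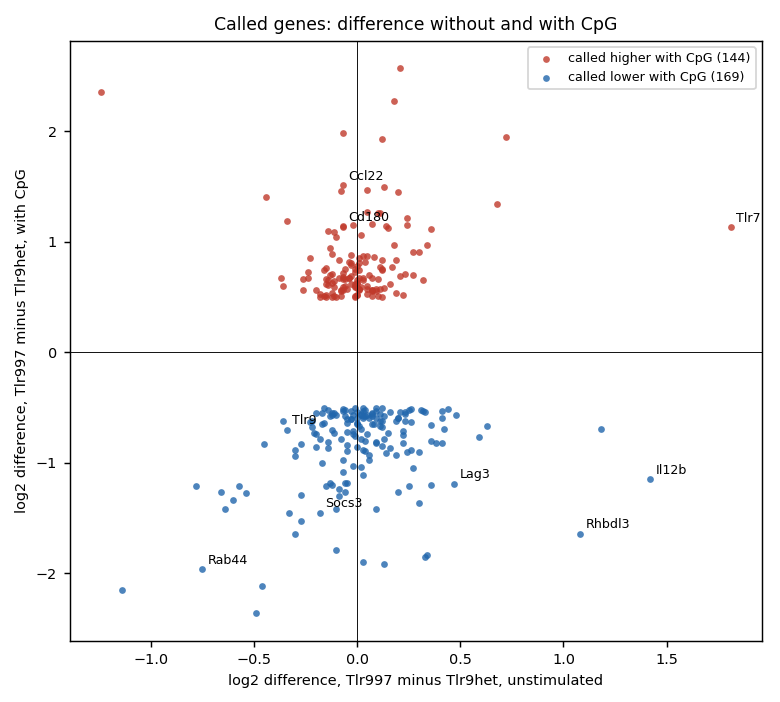
Log2 difference between Tlr997 and Tlr9het without CpG (x axis) and with CpG (y axis) for the 313 called genes. Points gather around 0 on the x axis, with Tlr7 far to the right at 1.81, and Il12b (1.42) and Rhbdl3 (1.08) to the right while below 0 on the y axis.

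The receptors themselves differed. Tlr9 (chr9:106222598-106226876, GRCm38) was 7.55, 7.18 and 7.19 log2 CPM in the Tlr997 CpG libraries and 8.02, 7.93 and 8.08 in those of Tlr9het. The groups did not overlap, and Tlr9 was 1.63-fold lower in Tlr997 (log2 fold change -0.70, SE 0.09, adjusted p = 0.00078). Without CpG the difference was -0.34 (adjusted p = 0.3), and CpG raised the level by 0.27 in Tlr997 (adjusted p = 0.016) and by 0.64 in Tlr9het (adjusted p = 2.5e-05). Tlr7 (chrX:167303380-167330574) was 5.33, 5.36 and 5.33 log2 CPM in the Tlr997 CpG libraries and 4.11, 4.24 and 4.28 in those of Tlr9het, a difference of 1.13 (SE 0.17, adjusted p = 0.002) that was 1.81 without CpG (adjusted p = 0.00059). The chimeric transcript carries TIR sequence of TLR7, whose reads can be counted to Tlr7, and TIR sequence of TLR9 behind the stop codon, whose reads can be counted to Tlr9, so neither value measures the amount of receptor. Tlr9het, which has no chimera and is Tlr7-/- by its label, also had Tlr7 values, which rose with CpG by 1.06 (adjusted p = 7.6e-05). The source of these reads was not tested. Among the 118 other genes tested within 5 Mb of Tlr9, Uba7 was higher and Tmem108 lower, and among the 26 within 5 Mb of Tlr7, Tmsb4x was higher.

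Of 37 genes tested in the endosomal TLR pathway 2 were higher, 1 lower and the median was 0.03. The called genes were Tlr7, Tlr9 and Cd180, a TLR-like surface protein of B cells that modulates TLR4 responses. Cd180 was 6.0, 5.87 and 5.79 log2 CPM in Tlr997 and 4.75, 4.76 and 4.75 in Tlr9het with CpG. It was 2.2-fold higher in Tlr997 (1.14, SE 0.08, adjusted p = 6.1e-06), and without CpG the difference was -0.07. The adaptor Myd88 (-0.06), the chaperone Unc93b1 (0.09) and the kinase Irak1 (0.19) were not called, nor was the transcription factor Irf5 at 0.47 (adjusted p = 0.0016), which missed the fold threshold.

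Interferon-inducible genes gave the most calls among the gene lists. In 4 lists of interferon signal and sensor genes, effectors, guanylate-binding proteins (GBPs) and immunity-related GTPases (IRGs), 31 of 130 genes tested were higher in Tlr997 with CpG and 0 lower (23.8% higher, against 1.25% of all genes). The fold change was above 0 for 116 of the 130, with a median of 0.47, whereas without CpG 66 were above 0, the median was 0.01 and 0 were called. The number of calls moved with the libraries used. It was 14 without Tlr9het CpG library 1, 15 without Tlr9het CpG library 2, 15 without Tlr997 CpG library 2 and 8 when all 18 libraries were fitted together, while the median stayed between 0.39 and 0.54 in every alternative.

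**Figure D3:**
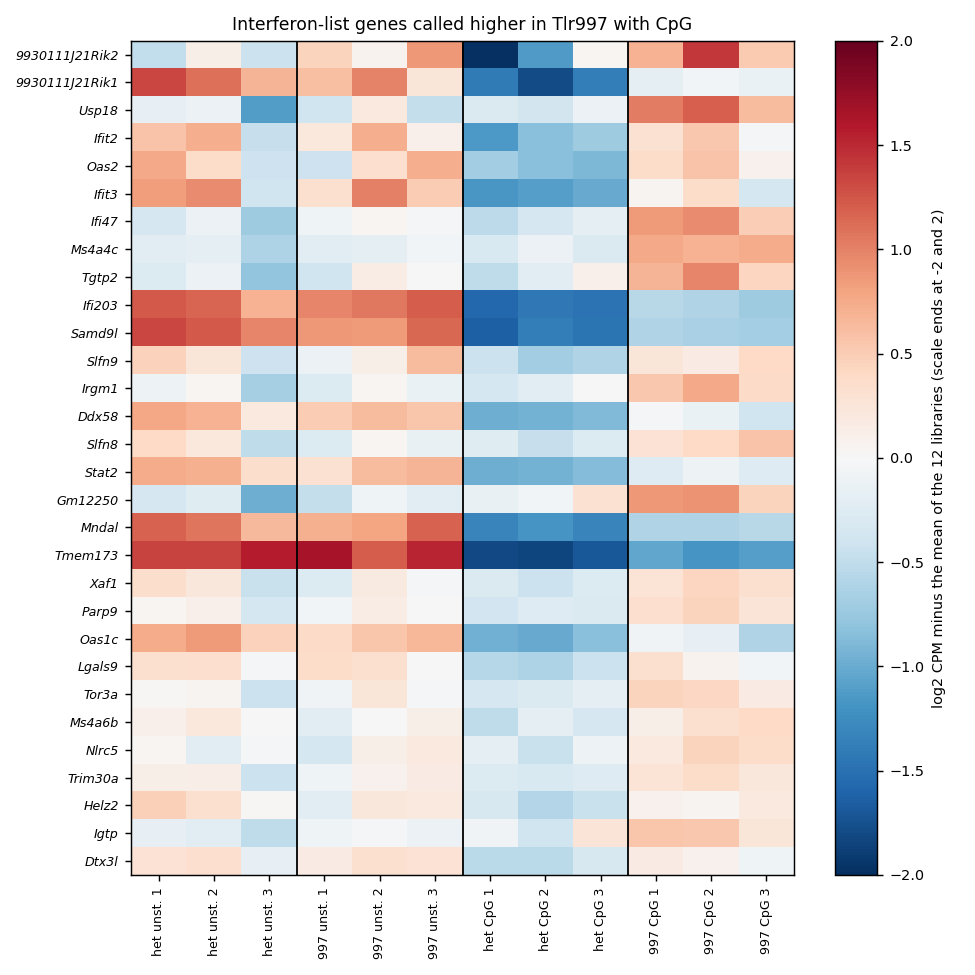
Level of 30 of the 31 interferon-list genes called higher in Tlr997 with CpG, as log2 CPM minus the mean of the 12 libraries (color scale from -2 to 2), with the 3 libraries of Tlr9het and of Tlr997, unstimulated on the left and with CpG on the right, in columns. Tlr9het CpG columns are bluer than Tlr997 CpG columns for nearly every gene, the third unstimulated Tlr9het library is bluer than the other unstimulated ones for many, and some genes (Stat2, Ifi203, Tmem173) lay below their unstimulated level in both genotypes while others (Usp18, Ifi47, Ms4a4c) lay above it in Tlr997.

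Of 23 genes of interferon signaling and nucleic acid sensing 6 were higher, with a median of 0.45. Stat2 carries the signal of the type I interferon receptor to the nucleus. It was 6.93, 7.08 and 6.93 log2 CPM in Tlr997 and 6.21, 6.24 and 6.31 in Tlr9het (0.72, SE 0.11, adjusted p = 0.0022). Stat2 fell by 0.74 with CpG in Tlr997 and fell by 1.53 in Tlr9het. Ddx58, which encodes the RNA sensor RIG-I, was higher by 0.74 (adjusted p = 0.0046) and Tmem173, which encodes STING, by 0.67 (adjusted p = 0.0022). Usp18, a protease that removes ISG15 and dampens interferon receptor signaling, was 6.88, 7.06 and 6.50 log2 CPM in Tlr997 and 5.58, 5.50 and 5.74 in Tlr9het. It was 2.31-fold higher (1.21, SE 0.25, adjusted p = 0.012), a call lost without Tlr997 CpG library 2 or Tlr9het CpG library 1 or 2 (adjusted p up to 0.055).

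Of 85 interferon effectors 21 were higher, with a median of 0.46. Ifi203, of the DNA-binding HIN-200 family, was 7.46, 7.42 and 7.31 log2 CPM in Tlr997 and 6.45, 6.59 and 6.54 in Tlr9het (0.87, SE 0.11, adjusted p = 0.00085), and Samd9l, an antiviral restriction factor, was 7.12, 7.07 and 7.03 against 6.08, 6.33 and 6.26 (0.85, adjusted p = 0.00038). The genotypes were far apart in these genes relative to the spread within each. The translation inhibitors Ifit2 and Ifit3 differed by 1.16 (adjusted p = 0.022) and 1.12 (adjusted p = 0.043) with more spread, and each lost its call without any 1 of 5 CpG libraries (Tlr997 1 and 2 and Tlr9het 1, 2 and 3), with adjusted p up to 0.10 and 0.16. Oas2, an activator of RNase L, differed by 1.15 (adjusted p = 0.04) and lost its call without any 1 of the 6 CpG libraries or of 2 unstimulated ones (Tlr997 2 and Tlr9het 2), with adjusted p up to 0.14. Several well-known members did not pass. Mx1 differed by 0.97 (adjusted p = 0.078), Irf7 by 0.58 (adjusted p = 0.11), Isg15 by 0.29 (adjusted p = 0.74) and Rsad2 by 0.20 (adjusted p = 0.91).

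IRGs, GTPases that act on the vacuoles of intracellular pathogens, were higher in 7 of 16 genes, with a median of 0.76 with CpG and 0.21 without. Ifi47 was 8.27, 8.36 and 7.90 log2 CPM in Tlr997 and 6.89, 7.08 and 7.23 in Tlr9het (1.11, SE 0.14, adjusted p = 0.00078). 9930111J21Rik1 was 4.58, 4.71 and 4.63 against 3.35, 2.98 and 3.38 (1.40, SE 0.19, adjusted p = 0.00098). Both groups were well separated in these 2 genes, and both kept their call without any single library. Irgm1 (0.75), Tgtp2 (0.91), Gm12250 (0.70), Igtp (0.52) and 9930111J21Rik2 (1.95) were also called, and Igtp was the called gene whose libraries overlapped between genotypes. Their calls were each lost without at least 3 of the libraries taken singly, with adjusted p up to 0.072, 0.099, 0.19, 0.19 and 0.15, respectively, and Igtp was also lost with the replicate number as a block (adjusted p = 0.055). Only 2 IRG calls were left without Tlr997 CpG library 2, Tlr9het CpG library 1 or Tlr9het CpG library 2, and 3 without Tlr997 CpG library 1. IRGs have near-identical copies (Tgtp1 and Tgtp2, 9930111J21Rik1 and 9930111J21Rik2), between which reads may have been divided. Of 9 GBPs, the related large GTPases, 0 were called, which for 9 genes lies near the 1.25% higher among all genes. The fold change was above 0 for 8 of them, with a median of 0.29, and without CpG 3 were above 0. Values ranged from -0.17 (Gbp5) to 1.01 (Gbp10), with Gbp2 at 0.11 and Gbp4 at 0.31.

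Because these genes moved together, an ISRE-like core, GAAANNGAA, was searched for on both strands. The search covered the 250 bases before 1 RefSeq start site per gene (GRCm38.p6, the first listed). Of the 16 rule-named interferon genes with a window, 8 held a match, and Ifi47, Ifit2, Ifi203, Samd9l and Ms4a4c were among those without one. The windows of Ifit2, Ifit3, Ifi203 and Ms4a4c lay wholly or partly inside the span of the gene. The bases before the outer end of these genes were thus searched in part or not at all. Shown are the 3 windows with more than 1 match and that of Stat2, in gene direction, with every match in capitals (as the core or as its reverse complement).
Ifit3 (chr19:34583279-34583528, plus strand): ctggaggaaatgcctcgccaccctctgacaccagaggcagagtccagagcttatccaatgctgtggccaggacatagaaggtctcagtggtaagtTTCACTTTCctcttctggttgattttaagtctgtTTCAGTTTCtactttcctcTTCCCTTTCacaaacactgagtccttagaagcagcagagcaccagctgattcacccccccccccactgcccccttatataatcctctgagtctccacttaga
Irgm1 (chr11:48871421-48871670, minus strand): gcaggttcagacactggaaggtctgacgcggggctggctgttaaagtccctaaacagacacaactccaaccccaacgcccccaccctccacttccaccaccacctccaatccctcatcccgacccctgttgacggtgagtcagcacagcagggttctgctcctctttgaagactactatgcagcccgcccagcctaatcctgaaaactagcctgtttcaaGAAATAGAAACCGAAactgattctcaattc
Gm12250 (chr11:58183593-58183842, plus strand): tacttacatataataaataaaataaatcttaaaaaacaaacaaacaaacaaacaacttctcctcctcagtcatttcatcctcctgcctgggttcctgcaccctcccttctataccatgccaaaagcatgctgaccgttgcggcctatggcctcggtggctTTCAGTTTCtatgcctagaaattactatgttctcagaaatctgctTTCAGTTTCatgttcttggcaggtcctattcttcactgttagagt
Stat2 (chr10:128270248-128270497, plus strand): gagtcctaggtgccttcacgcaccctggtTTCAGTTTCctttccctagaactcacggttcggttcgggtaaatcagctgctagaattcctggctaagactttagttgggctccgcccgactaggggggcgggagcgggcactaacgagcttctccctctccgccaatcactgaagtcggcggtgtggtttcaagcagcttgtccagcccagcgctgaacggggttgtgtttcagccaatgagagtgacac
Ifit3 held 3 matches, which began 155, 121 and 102 bases before the start, and Irgm1 held 2 overlapping matches at 30 and 24 bases. Gm12250 had matches at 90 and 45 bases, and Stat2 had 1 at 221 bases.

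Over the full 300-base windows (250 bases before and 50 after the start, the first window listed per gene), the ISRE-like core was found in 676 of 9204 genes tested (7.34%). It was found in 27 of 116 higher genes with a window (23.3%) and in 7 of 127 lower genes (5.51%). Among interferon-list genes the share was 16 of 24 for those called higher (66.7%) and 34 of 77 for those not called (44.2%), and among the higher genes outside these lists it was 11 of 92 (12%). A STAT-type core, TTCNNNGAA, was found in 10.3% of higher, 5.51% of lower and 7.12% of all windows. The NF-κB consensus (κB site) was found in 12.1%, 18.9% and 10.2%, respectively. These shares describe letters in the windows and do not show binding.

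Of 9 ligands and receptors of the interferon system tested, 0 were higher and 2 lower. All 9 had fold changes below 0, with a median of -0.83 that ranged from -0.90 to -0.25 over the alternatives, and the median included genes at low levels that were not called, such as Ifna2 (-2.24, adjusted p = 0.29) and Ifng (-1.15, adjusted p = 0.25). Ifngr1, the ligand-binding chain of the interferon-γ receptor, was 6.27, 6.29 and 6.33 log2 CPM in Tlr997 and 7.06, 7.22 and 7.29 in Tlr9het with CpG, and 7.23, 7.13 and 7.02 against 6.97, 7.1 and 7.19 without. Tlr997 libraries with CpG thus lay below all 9 others, at 1.86-fold less than Tlr9het (-0.89, SE 0.08, adjusted p = 2.7e-05). CpG lowered Ifngr1 by 0.83 in Tlr997 (adjusted p = 3.5e-07), and the change in Tlr9het was 0.10 (adjusted p = 0.25). Ifnlr1, of the interferon-λ receptor, differed by -0.83 (adjusted p = 0.049), a call lost without any 1 of the CpG libraries or of the Tlr9het unstimulated libraries (adjusted p up to 0.16) and with the replicate number as a block (adjusted p = 0.055), which left 1 lower call in this list. Ifnb1 was at 1.12, 0.53 and -0.32 in Tlr997 and 2.16, 1.51 and 1.64 in Tlr9het (-1.33, adjusted p = 0.33), and Ifnar1 differed by -0.09.

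Socs3 and Socs1, of the suppressors of cytokine signaling, were lower in Tlr997. Socs3, an inhibitor of the JAK kinases below gp130 receptors, was 7.39, 7.53 and 8.17 log2 CPM in Tlr997 and 9.09, 9.06 and 9.28 in Tlr9het with CpG. It was 2.73-fold lower (-1.45, SE 0.22, adjusted p = 0.0024), and rose with CpG in both genotypes, by 4.27 in Tlr997 and 5.54 in Tlr9het. Socs1, which inhibits interferon receptor signaling, differed by -0.82 (adjusted p = 0.03), a call lost without Tlr997 CpG library 1 or 3 or any 1 Tlr9het CpG library (adjusted p up to 0.12). All 8 SOCS genes tested were below 0, with 2 called and a median of -0.20, although 2 of them lay above 0 without Tlr997 CpG library 1. The 6 that were not called lay between -0.29 and -0.02.

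Among 33 JAK-STAT genes and targets 0 were higher and 3 lower (9.09%, against 1.47% of all genes), with a median of -0.09. Ptpn1 encodes PTP1B, a phosphatase of JAK2 and TYK2. It was 8.19, 8.28 and 8.54 log2 CPM in Tlr997 and 9.34, 9.31 and 9.47 in Tlr9het, 2.05-fold lower (-1.03, SE 0.10, adjusted p = 7.5e-05), and it rose with CpG by 0.45 in Tlr997 (adjusted p = 0.0011) and by 1.46 in Tlr9het (adjusted p = 1.4e-08). The separation of the groups exceeded the spread within each. Il10ra, the ligand-binding chain of the IL-10 receptor, was 6.27, 6.11 and 6.05 against 6.93, 6.90 and 6.95 (-0.78, SE 0.07, adjusted p = 2.5e-05). Bcl6, a transcriptional repressor expressed in germinal center B cells, differed by -0.55 (adjusted p = 0.0041) and dropped below the fold threshold without Tlr997 CpG library 2 or 3.

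Cytokine genes that passed the test were lower in Tlr997. Of 21 cytokine ligands 0 were higher and 3 lower (Il12b at -1.15, Osm at -0.73 and Il12a at -0.53), with a median of -0.32, and of 9 TNF superfamily ligands 0 were higher and 2 lower, with a median of -0.45. Tnf was 6.15, 5.89 and 5.79 log2 CPM in Tlr997 and 6.58, 6.43 and 6.55 in Tlr9het (-0.58, SE 0.10, adjusted p = 0.0032). Lta, encoding lymphotoxin α, was 4.54, 4.46 and 4.30 against 5.41, 5.23 and 5.36 (-0.90, SE 0.18, adjusted p = 0.011), and lost its call without Tlr9het CpG library 1 (adjusted p = 0.054). The groups did not overlap for either gene.

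Il12b, the p40 subunit of IL-12 and IL-23, was 6.73, 6.80 and 6.65 log2 CPM in Tlr997 and 7.73, 7.87 and 8.01 in Tlr9het with CpG (-1.15, SE 0.28, adjusted p = 0.03). Without CpG it was low, at 1.10, 0.43 and 1.81 against -0.18, -0.77 and 0.04. The call was lost without any 1 of the 6 CpG libraries (adjusted p up to 0.12) and in fits of all 18 libraries, with no filter and with no trend of the variance (adjusted p up to 0.3), and kept in a fit of the 6 CpG libraries alone. Il6 at -0.63 (adjusted p = 0.41) and Il10 at -0.42 (adjusted p = 0.55) were not called, and none of the 3 cytokine calls was left without Tlr997 CpG library 2, Tlr9het CpG library 1 or Tlr9het CpG library 3.

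Chemokine ligands moved in both directions, with 1 of 14 higher and 1 lower. Ccl22, a ligand of CCR4 that attracts regulatory and Th2 cells, was 6.13, 6.13 and 5.61 log2 CPM in Tlr997 and 4.37, 4.42 and 4.54 in Tlr9het with CpG, and 2.01, 2.06 and 2.31 against 2.38, 2.03 and 2.17 without. It was 2.86-fold higher in Tlr997 (1.51, SE 0.16, adjusted p = 0.00017), and rose with CpG by 3.83 in Tlr997 and 2.25 in Tlr9het. Ccl4, an attractant of T cells and monocytes, differed by -0.53 (adjusted p = 0.019), a call lost without any 1 of 5 CpG libraries (Tlr997 1 and 3 and Tlr9het 1, 2 and 3), with adjusted p up to 0.08, and Ccl3 differed by -0.48 (adjusted p = 0.078).

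**Figure D4:**
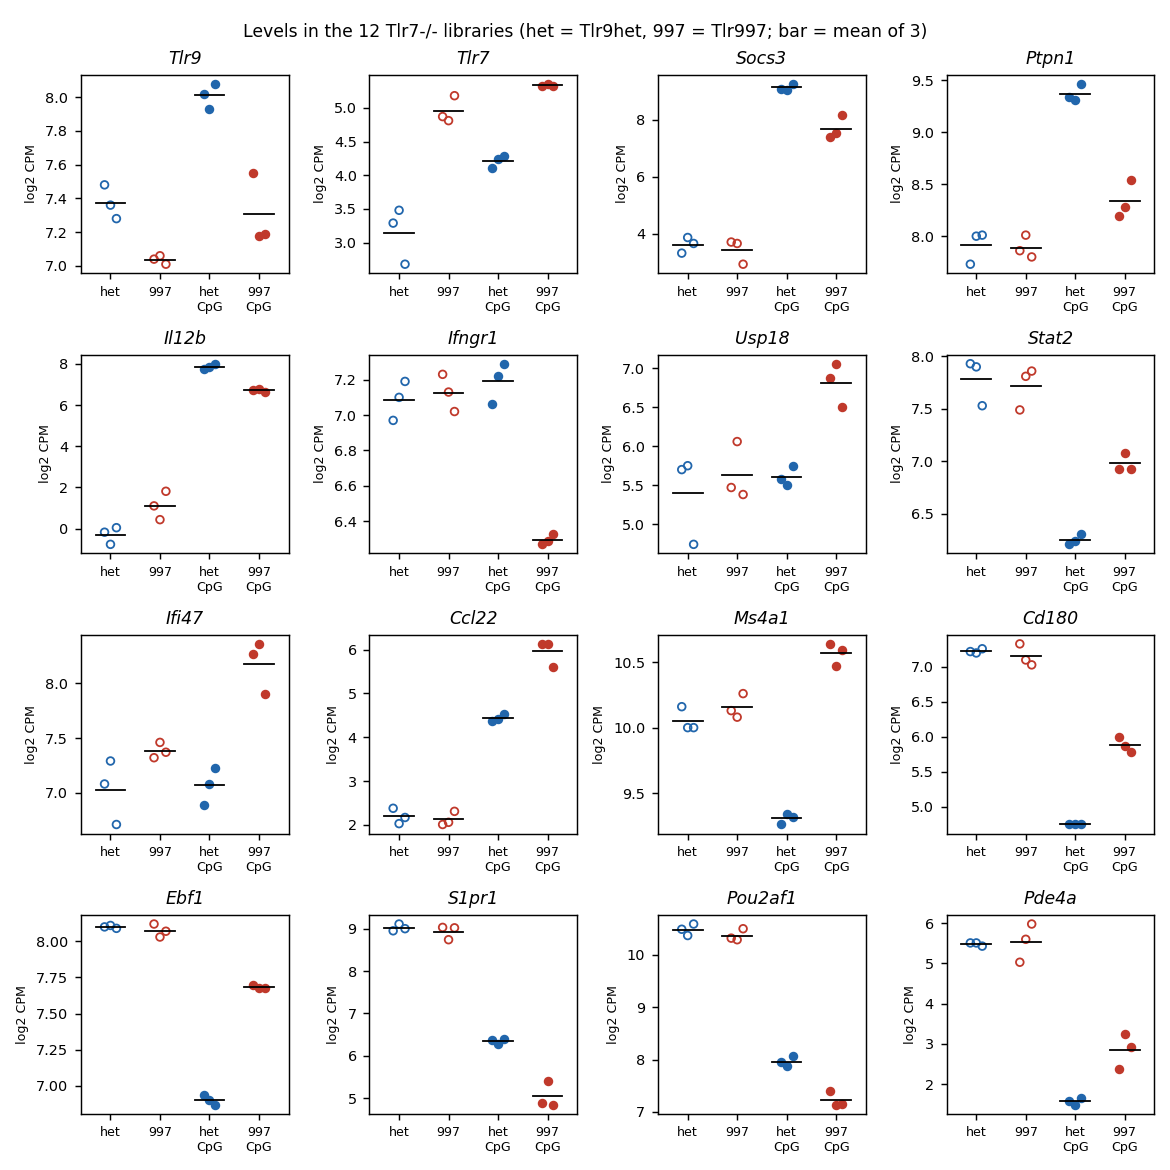
Levels (log2 CPM, a separate y axis for each gene) of 16 genes in each of the 12 Tlr7-/- libraries, Tlr9het in blue and Tlr997 in red, open circles unstimulated and filled circles with CpG, with bars at the mean of 3. Ms4a1 lies above its unstimulated level in Tlr997 and below it in Tlr9het, while S1pr1 and Pou2af1 lie below it in both and further in Tlr997.

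Calls among NF-κB and MAP kinase feedback genes were each lower in Tlr997. Of 37 NF-κB subunits, inhibitors and regulators 3 were lower (8.11%, against 1.47% of all genes), and the median was -0.07. These were Pdlim1, Trib3 and Tnfaip3, and 1 call was left without Tlr9het CpG library 1. Pdlim1, which limits p65 activity, was 3.75, 3.56 and 3.57 log2 CPM in Tlr997 and 4.41, 4.44 and 4.49 in Tlr9het (-0.82, SE 0.14, adjusted p = 0.0039). Tnfaip3, which encodes the inhibitor A20, lay at the fold threshold (-0.50, SE 0.06, adjusted p = 0.00038), and without Tlr997 CpG library 2 or Tlr9het CpG library 1 it fell inside it. The inhibitor Nfkbia differed by -0.20 (adjusted p = 0.28). Rasa3, a GTPase-activating protein that turns off Ras and Rap, was 6.20, 6.17 and 6.12 against 6.95, 7.14 and 7.03 (-0.87, SE 0.06, adjusted p = 6.9e-06). It was the only call among 21 MAP kinase phosphatases and Ras-ERK dampers (4.76%).

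Of 29 immediate early and AP-1 genes 3 were lower and 0 higher, with a median of -0.12. Jun was 9.84, 9.62 and 9.88 log2 CPM in Tlr997 and 10.67, 10.46 and 10.54 in Tlr9het (-0.78, SE 0.15, adjusted p = 0.0097), and lost its call without Tlr9het CpG library 1 (adjusted p = 0.052). The nuclear receptor Nr4a3 differed by -0.74 (adjusted p = 0.0028). Batf, a partner of IRF4 needed for class switching, differed by -0.52 (adjusted p = 0.016), and lost its call without Tlr997 CpG library 1 or 2 or Tlr9het CpG library 3 (adjusted p up to 0.085).

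Genes of the B cell surface and identity were also among the higher genes. Of 12 B cell markers 4 were higher and 0 lower. Ms4a1, which encodes CD20, was 10.64, 10.47 and 10.59 log2 CPM in Tlr997 and 9.26, 9.34 and 9.32 in Tlr9het with CpG, and 10.13, 10.08 and 10.26 against 10.16, 10.00 and 10.00 without. It was 2.4-fold higher in Tlr997 (1.26, SE 0.07, adjusted p = 7.9e-07), where CpG raised it by 0.41 (adjusted p = 8.4e-05), while it fell by 0.75 in Tlr9het (adjusted p = 2.2e-07). Cd79b, the β chain of the B cell receptor, was 8.69, 7.87 and 8.06 against 7.07, 7.22 and 7.22 (1.04, SE 0.16, adjusted p = 0.0022), after falls with CpG of 2.58 in Tlr997 and 3.73 in Tlr9het. Its partner Cd79a differed by 0.04 (adjusted p = 0.9). Cd22, an inhibitory coreceptor, was higher by 0.58 (adjusted p = 0.011, lost without Tlr997 CpG library 3 or Tlr9het CpG library 1 with adjusted p up to 0.052).

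The summed level of the 12 B cell markers was 3268 to 3895 CPM in Tlr997 and 2252 to 2304 in Tlr9het with CpG, against 7851 to 9048 and 8268 to 9234 without. Abundant genes weigh most in such a sum, Ms4a1 among them, at a mean of 10.57 against 9.31 log2 CPM with CpG. The median fold change of the 12 markers was 0.24, with 10 above 0 and 2 below. A lower share of B cells and less RNA of these genes per B cell cannot be told apart in bulk RNA. The follicular markers summed to 4154 to 4420 and 4147 to 4456 CPM and the marginal zone markers to 717 to 838 and 737 to 781 in Tlr997 and Tlr9het with CpG, although 3 of 12 marginal zone markers were higher (Cr2, Dtx1 and S1pr3) and 2 of 8 follicular markers lower (Gpr183 and Satb1). The number of marginal zone calls was 1 to 3 when single libraries were left out. T cell markers summed to 89.8 to 108 CPM in Tlr997 and 95.3 to 148 in Tlr9het, with 0 of 13 called and a median of -0.42, and Cd3e at 0.13, 0.86 and 0.18 against 0.31, 2.37 and 1.96 log2 CPM. Macrophage markers summed to 166 to 346 and 223 to 278 CPM, with 0 of 13 called. Markers of dendritic cells and plasmacytoid dendritic cells summed to 821 to 1056 CPM in Tlr997 and 756 to 773 in Tlr9het with CpG, without overlap, and to 1050 to 1143 against 969 to 1044 without. Of the 8 tested, 1 was called, Tcf4, which B cells also express, and Bst2, which is interferon-inducible, differed by 0.42 and Siglech by -1.02 without a call. Neutrophil (38.4 to 134 against 51.2 to 97.1 CPM), NK cell (12 to 19.3 against 10.7 to 24), erythroid and platelet (31.5 to 405 against 21.1 to 215), plasma cell (311 to 395 against 288 to 456) and age-associated B cell markers (433 to 509 against 489 to 494) overlapped, with 0 called. The part of these cells in the results was not tested.

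Genes of stress and RNA quality summed to 5103 to 5905 CPM in Tlr997 and 6243 to 6496 in Tlr9het with CpG, without overlap, and to 2390 to 2726 and 2459 to 2795 without CpG. Of the 10 tested 1 was lower, Jun. The part of stress or RNA quality in the results was not tested.

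The Ms4a family, tetraspanning membrane proteins encoded together on 1 chromosome, was higher in 4 of 8 genes tested, with a median of 0.72 and 7 of 8 above 0. Ms4a4c was 9.22, 9.15 and 9.21 log2 CPM in Tlr997 and 8.15, 8.35 and 8.17 in Tlr9het (0.97, SE 0.10, adjusted p = 0.00011). Ms4a6c was 7.64, 7.47 and 7.45 against 6.33, 6.45 and 6.21 (1.19, SE 0.14, adjusted p = 0.00038), with rises by CpG of 1.95 in Tlr997 and 0.42 in Tlr9het. Ms4a6b followed at 0.61 (adjusted p = 0.0059). These 4 genes kept their calls without any single library, and Ms4a4c and Ms4a6b also stood on the list of interferon effectors.

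Transcription factors of the B cell program moved in both directions. Of 39 tested 2 were higher and 5 lower, with a median of -0.14. Ebf1, which specifies the B lineage, was 7.70, 7.68 and 7.68 log2 CPM in Tlr997 and 6.94, 6.90 and 6.87 in Tlr9het (0.79, SE 0.04, adjusted p = 7.9e-07), and Tcf4, an E protein, was 7.56, 7.51 and 7.51 against 6.94, 6.93 and 6.85 (0.62, SE 0.06, adjusted p = 7.1e-05). Both were among the most tightly separated genes of the comparison. Pou2af1, the octamer coactivator OCA-B, was lower at 7.41, 7.14 and 7.15 against 7.95, 7.88 and 8.06 (-0.73, SE 0.09, adjusted p = 0.00038). Foxo1 (-0.56, adjusted p = 0.00044) and Runx1 (-0.67, adjusted p = 0.0032) were lower as well, and Bhlhe41 (-1.18, adjusted p = 0.027) lost its call without any 1 of the 6 CpG libraries (adjusted p up to 0.11). The plasma cell regulators Prdm1 (-0.82, adjusted p = 0.16) and Irf4 (-0.16, adjusted p = 0.19) were not called, and 0 of 22 plasmablast and secretion genes were, with a median of -0.04.

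Receptors that position B cells differed in both directions. Of 32 chemokine and lipid receptors 3 were higher and 3 lower (18.8% called, against 2.72% of all genes). S1pr1, the sphingosine-1-phosphate receptor that governs egress from lymphoid organs, was 4.90, 5.41 and 4.85 log2 CPM in Tlr997 and 6.38, 6.28 and 6.40 in Tlr9het with CpG. It fell with CpG by 3.88 in Tlr997 and 2.67 in Tlr9het, and was 2.46-fold lower in Tlr997 (-1.30, SE 0.13, adjusted p = 8e-05). Gpr183, the oxysterol receptor EBI2, differed by -0.60 (adjusted p = 0.0028) and Gpr18 by -0.62 (adjusted p = 0.001). Cxcr7, a scavenging receptor for CXCL12, was 1.97, 2.78 and 2.84 against 0.77, 0.40 and 0.64 (1.93, SE 0.32, adjusted p = 0.0034). The other higher genes, Gpr132 (0.86) and S1pr3 (0.55), were lost when some single libraries were left out (adjusted p up to 0.079 and 0.14), and Cxcr7 alone of the 3 was left without Tlr997 CpG library 3.

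Other surface molecules showed single calls. The adhesion receptor Slamf1 was 7.17, 7.18 and 7.49 log2 CPM in Tlr997 and 8.02, 8.09 and 8.36 in Tlr9het (-0.88, SE 0.14, adjusted p = 0.0025). Cd38, an NAD-consuming ectoenzyme, was 5.63, 5.41 and 5.67 against 6.19, 6.22 and 6.30 (-0.67, SE 0.08, adjusted p = 0.00031). The inhibitory receptor Lag3 was 3.92, 4.09 and 4.04 against 5.36, 4.96 and 5.31 (-1.19, SE 0.19, adjusted p = 0.0029). None of these 3 groups of values overlapped. The scavenger receptor Cd36 was higher by 1.14 (adjusted p = 0.00098), and the activation markers Cd69 (0.09), Cd86 (0.05) and Cd40 (-0.10) were not called.

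Phosphodiesterases degrade cyclic nucleotides, and 4 of 15 genes whose symbols begin with Pde were called (26.7%, against 2.72% of all genes). Symbol families were singled out for 3 or more calls, so this share was raised by the choice and is no separate evidence. In the list of phosphodiesterase and cAMP genes 4 of 30 were called (13.3%), with a median of 0.02. Pde4a was 2.37, 3.24 and 2.92 log2 CPM in Tlr997 and 1.57, 1.49 and 1.66 in Tlr9het (1.27, SE 0.23, adjusted p = 0.0061). Pde7a was 7.71, 7.71 and 7.88 against 6.92, 6.96 and 6.78 (0.88, SE 0.06, adjusted p = 6.3e-06), and Pde3b was higher by 0.73 (adjusted p = 0.00027). For all 3, whose products hydrolyze cAMP, the Tlr997 value lay between the Tlr9het value with CpG and the unstimulated level. Pde7b differed by -1.42 (adjusted p = 0.027), a call lost without Tlr997 CpG library 2 or any 1 Tlr9het CpG library (adjusted p up to 0.11). Chst3 and Chst10, sulfotransferases, were higher by 0.83 (adjusted p = 0.003) and 0.67 (adjusted p = 0.0095, and 0.052 without Tlr9het CpG library 1), whereas Chst11 was lower (-0.62, adjusted p = 0.015, up to 0.071 with 1 library left out).

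**Figure D5:**
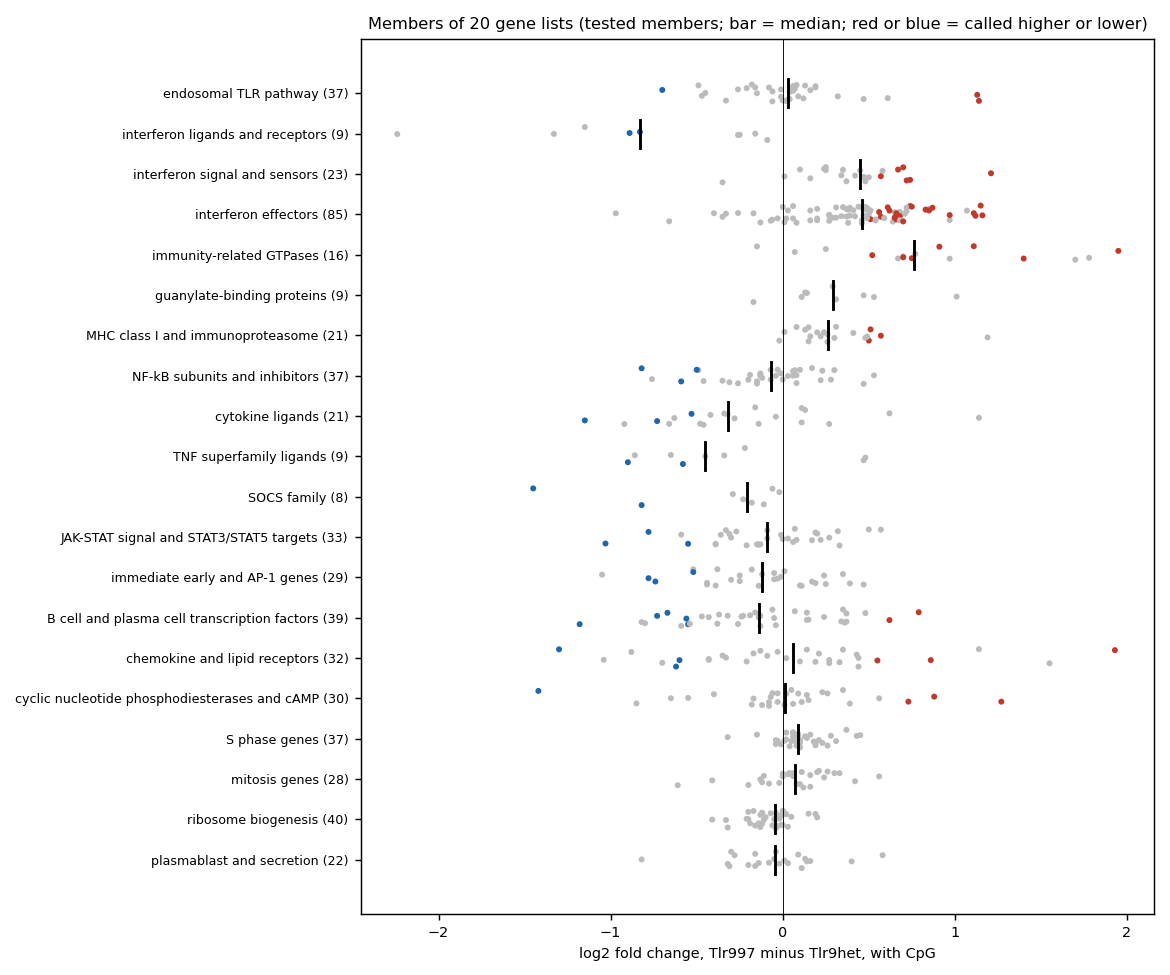
Log2 fold change (Tlr997 minus Tlr9het, with CpG) of every tested member of 20 gene lists, with the number tested after each name, the median as a black bar and called genes in red (higher) or blue (lower). Calls among interferon signal genes, effectors and immunity-related GTPases lie right of 0, those of cytokines, TNF ligands, SOCS and JAK-STAT genes lie left of it, and growth lists at the bottom have none.

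Growth lists held 0 to 2 calls each at 4 h, beside 2.72% of all genes tested. Of 16 genes of D cyclins, CDK4/6 and CDK inhibitors 1 was higher (Rbl1) and 1 lower (Cdkn1a). Of 37 S phase genes, 28 mitosis genes, 10 genes of the Myc network, 40 of ribosome biogenesis and 39 of amino acid transport and synthesis, 0 were called, with medians of 0.09, 0.07, -0.04, -0.05 and -0.10. In lists of 10 to 40 genes, 0 calls lie near the share of all genes. The differences were small but lay mostly on 1 side of 0 in some lists. In S phase 31 of 37 genes were above 0, but the list means overlapped (4.92, 4.68 and 4.52 log2 CPM in Tlr997 and 4.77, 4.55 and 4.48 in Tlr9het). In ribosome biogenesis 31 of 40 were below 0 (8.36, 8.42 and 8.44 against 8.47, 8.48 and 8.48). In amino acid transport and synthesis 30 of 39 were below 0 (6.56, 6.63 and 6.50 against 6.67, 6.67 and 6.64). Without CpG, 24, 27 and 28 genes of these 3 lists, respectively, were above 0. Myc, the growth regulator, was 10.61, 10.74 and 10.57 log2 CPM in Tlr997 and 10.89, 10.80 and 10.96 in Tlr9het (-0.25, adjusted p = 0.18). Of 21 MHC class I and immunoproteasome genes 3 were higher, with a median of 0.26 and 20 above 0, and 0 of these calls were left without Tlr997 CpG library 2. H2-T24 (0.50, adjusted p = 0.047) and Nlrc5 (0.57, adjusted p = 0.023) lost their calls without any 1 of several libraries (adjusted p up to 0.16 and 0.11). Psmb8, a catalytic subunit of the immunoproteasome, differed by 0.51 (adjusted p = 0.0014) and dropped below the fold threshold without Tlr997 CpG library 2 or 3 or Tlr9het CpG library 1 or 2. Of 17 MHC class II genes 0 were higher and 1 (March1, a ubiquitin ligase of MHC II, at -0.57 and adjusted p = 0.043, up to 0.17 with 1 library left out) lower, and of 23 glycolysis genes 1 was higher, Eno2 (1.46, adjusted p = 0.015, lost without Tlr997 CpG library 2 or Tlr9het CpG library 1 or 2, with adjusted p up to 0.073).

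Among the lower genes with the largest differences were several outside the signaling pathways above. Rhbdl3, a rhomboid-like membrane protein, was 5.35, 5.72 and 5.50 log2 CPM in Tlr997 and 6.92, 7.31 and 7.25 in Tlr9het with CpG (-1.64, SE 0.27, adjusted p = 0.0037), after rises with CpG of 5.13 and 7.85. Snx21, a sorting nexin, was 0.95, 1.16 and 1.08 against 3.15, 2.94 and 3.42 (-2.11, SE 0.39, adjusted p = 0.0067). Rab44, a large Rab GTPase, was 1.72, 1.25 and 1.90 against 4.00, 2.98 and 3.79 (-1.96, SE 0.34, adjusted p = 0.0041). The groups were apart in each, and St6galnac3, a sialyltransferase (-1.53, adjusted p = 0.0028), and Smagp, a small adhesion protein (-1.36, adjusted p = 0.0025), followed.

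The responses to CpG itself, which share these libraries with the genotype comparison and are given only side by side, show what the called genes did. Of the 144 higher genes, 28 rose and 78 fell with CpG in Tlr997, and 8 rose and 106 fell in Tlr9het. Of the 169 lower genes, 66 rose and 62 fell in Tlr997, and 97 rose and 41 fell in Tlr9het. Over all genes tested, CpG raised 29.6% and lowered 26.0% in Tlr997 and raised 29.7% and lowered 28.2% in Tlr9het.

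The reciprocal chimera gave a separate set of libraries. B cells of male MRL/lpr mice with Tlr779, TLR7 with the TIR domain of TLR9, on a Tlr9-/- background received the TLR7 agonist CL097 (5 µg/ml, 4 h) or none, 3 libraries each. Of 141 genes higher in Tlr997 that were also tested there, 25 rose (17.7%) and 72 fell (51.1%) with CL097, with a median change of -0.60. Of 168 genes lower in Tlr997, 77 rose (45.8%) and 45 fell (26.8%), with a median of 0.43. Of the 11012 genes tested in both, 22.8% rose and 23.7% fell. Among single genes, CL097 changed Cd180 by -2.26, Ms4a1 by -0.78 and Ebf1 by -0.73, and changed Socs3 by 5.28, Ptpn1 by 0.87 and Usp18 by 2.00. Sex, agonist and receptor differed between the 2 arms, and these cannot be told apart.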

How the data were processed

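RNA was sequenced by the authors from B cells of 6 groups of 3 samples. Per the labels and methods, reads were trimmed (Trim Galore 0.6.5), aligned to mm10 (STAR 2.6.1a) and counted (featureCounts, Subread 2.0.1), and the deposited values are log2 CPM made with voom after quantile normalization. In 6306 of the 6614 genes below -4 in all 12 Tlr7-/- libraries, all libraries of a replicate number held 1 value. In 822 of these, the value differed between numbers and averaged to the common low value, the trace of an adjustment by replicate number. Samples were grouped by title. All members and gene lists were chosen with earlier results of these data known.

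Genes over 0 log2 CPM in at least 3 of the 12 Tlr7-/- libraries were tested with limma 3.58.1 (R 4.3.3, lmFit and eBayes with a variance trend, 8 residual degrees of freedom, 1 mean per group). No counts were used, so no count test was run, and precision rests on the 3 libraries per group. The residual variance of each gene was pooled over the 12 libraries, so its SE is the same for the CpG and the unstimulated contrast. It can therefore differ from the spread within the CpG groups alone. The 8 degrees of freedom do not allow for the adjustment by replicate number that the deposited values carry. The script was tested on simulated data. Alternatives changed the libraries, filter, scaling, variance model, threshold and block, or left out each library. Genes named were Tlr7 and Tlr9, the 10 largest calls per direction with a mean over 2 log2 CPM and no overlap, up to 8 calls per list, up to 4 per symbol family with 5 tested and 3 called, and list members that were not called. Uba7, Tmsb4x, Cr2, Dtx1 and Satb1 were named after their values were seen. Symbols of 11449 of the 11494 genes matched RefSeq. Results of 3 genes are counted in the totals but not reported here.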

Additional observations from a re-analysis of the deposited data

Results flagged for a closer look

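For 52 of the 114 genes named by rule, the genotype difference itself differed between the CpG and the unstimulated libraries, by the interaction term of the limma fit (adjusted p under 0.05 and an absolute value over 0.5). Over all genes tested this held for 177 (1.54%). All 114 were called with CpG, and that contrast is part of the interaction. Their share was therefore raised by the choice of genes and is no separate evidence. The labels give 3 mice per genotype for both states, but do not say that a number marks 1 mouse. Same-numbered unstimulated and CpG libraries deviated together with r of 0.513, 0.287 and 0.509 in Tlr9het and 0.373, 0.083 and 0.025 in Tlr997. With 1 block for each genotype and number, an alternative chosen after seeing the data, all 52 genes were called. Their direction was fixed, since this block leaves the estimates unchanged. When single libraries were left out, 32 to 52 of the 52 genes were called. Values are the log2 difference between Tlr997 and Tlr9het with CpG minus that without. In 26 genes the Tlr997 excess was larger with CpG, and values are given for 25 of them. The largest values were those of 9930111J21Rik1 (1.84), Ccl22 (1.58), Ms4a6c (1.53), Cd180 (1.21), Fam111a (1.20), Ms4a1 (1.16), Cd79b (1.14), Samd9l (1.08) and Cd36 (1.00). Next came Pde7a (0.92), Chst3 (0.92), Zfp52 (0.91), Sh3bp2 (0.83), Ifi203 (0.82), Ebf1 (0.81), Stat2 (0.79) and Ms4a4c (0.79). The smallest in this direction were Bmf (0.77), Ms4a6b (0.75), Pde3b (0.74), Tlr1 (0.68), Rbl1 (0.66), Tmem173 (0.64), Snx2 (0.63) and Tcf4 (0.63).

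In the other 26 genes the difference was more negative with CpG. The most negative values were those of Rhbdl3 (-2.71), Il12b (-2.56), Smagp (-1.66), Lag3 (-1.66), Socs1 (-1.24), S1pr1 (-1.21), Pdlim1 (-1.21), Lta (-1.20) and Slamf1 (-1.14). Then followed Ptpn22 (-1.05), Ptpn1 (-1.01), Ccl4 (-0.94), Ifngr1 (-0.93), Batf (-0.82), Chst11 (-0.81), Il10ra (-0.80), Cd38 (-0.78) and Gpr18 (-0.75). The smallest were Rasa3 (-0.73), Nr4a3 (-0.72), Runx1 (-0.68), Pou2af1 (-0.62), Tnfaip3 (-0.62), Tnf (-0.62), Foxo1 (-0.57) and Zfp36 (-0.55). Il12b and Rhbdl3 combined a positive unstimulated difference (1.42 and 1.08, both at low levels) with a negative one after CpG. For the remaining named genes the interaction did not pass, which does not show that their differences were equal in both states.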

How the results depend on the processing

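Of the 114 named genes, all called, 48 kept their call in all of 24 alternative fits and 56 lost it without at least 1 library. None changed direction, but this was largely fixed in advance. Except for Igtp, the CpG libraries of the genotypes did not overlap, so leaving 1 out could not reverse the sign. Several other fits kept the same group means. Of the 313 calls, 127 (60 higher and 67 lower) were present whichever of the 12 libraries was left out. Leaving out 1 library gave 186 to 410 calls, with 83 to 181 higher and 102 to 229 lower, part of which reflects fewer samples. Other totals beyond 1.5 times the main one were 187 with no filter on low values (74 higher), 485 with array quality weights (234 higher), 74 at a fold threshold of 1 (31 higher, 43 lower) and 680 at any fold (334 higher, 346 lower). The split into higher and lower did not move by over 10 percentage points with another scaling. With the replicate block the fit gave 335 calls, 300 of them shared with the fit without it, and with the block in the 6 CpG libraries alone 403. Among the named genes the block took away the calls of Ifnlr1 and Igtp, and it leaves 6 residual degrees of freedom. Same-numbered CpG libraries of the 2 genotypes deviated together with r of 0.324, -0.038 and 0.110. Not each of these was over 0.1, and the numbers were not treated as pairs, but since the deposited values carry an adjustment by number, these r cannot show whether the numbers mark pairs or batches. For the difference of the genotype differences (177 calls) the alternatives were all chosen after seeing the data. It gave 329 calls with a block for each genotype and number (4 residual degrees of freedom, 176 shared with the fit without it), 215 with the replicate block, 377 with array quality weights, 78 with no filter, 98 with no trend of the variance and 87 to 292 without 1 library. Depth is unknown, and 11926 genes at low values were not tested.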

Other observations

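Further list members differed outside the groups above. The phosphatase Ptpn22, which restrains antigen receptor signaling, was lower in Tlr997 with CpG (-0.91, adjusted p = 0.0043), and the B cell surface protein Havcr1 (TIM-1) was higher (0.69, adjusted p = 0.0049). Of 36 genes of the BCL2 family and cell death 2 were higher, Bcl2l12 (0.60, adjusted p = 0.047) and the BH3-only gene Bmf (0.62, adjusted p = 0.0092), and 1 lower, Bcl2l15 (-1.90, adjusted p = 0.036). Bmf kept its call without any single library, Bcl2l12 lost it in 9 of the 12 fits without 1 library (adjusted p up to 0.17) and Bcl2l15 in 7 (up to 0.16), which left as few as 1 higher and 0 lower. The cell cycle inhibitor Cdkn1a differed by -0.84 (adjusted p = 0.034, up to 0.13 with 1 library left out) and the retinoblastoma relative Rbl1 by 0.54 (adjusted p = 0.0064, below the fold threshold without Tlr997 CpG library 2 or Tlr9het CpG library 3). Fam111a, a protease that restricts viral replication, was 7.62, 7.53 and 7.51 log2 CPM in Tlr997 and 6.33, 6.51 and 6.42 in Tlr9het (1.13, SE 0.07, adjusted p = 9.1e-07). Adjusted p-values are from limma.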
